A study of Mus musculus with 2 samples.

Results

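The respiratory chain genes are the nuclear and mitochondrial genes for the subunits of the 5 enzyme complexes of oxidative phosphorylation. They were chosen by symbol, from the naming stems of complexes I to V and the mitochondrial protein genes, with the added condition that the gene had at least 1 protein-coding transcript. The rule gave 100 gene identifiers with 99 symbols out of 55536 annotated genes, since Atp5o was annotated as 2 gene models. Of these, 87 were nuclear and 13 were mitochondrial. The nuclear members lay on 19 chromosomes, and 3 of them were X-linked. Among the nuclear members, 76 were constitutive subunits, and the rest were 8 paralogues that are known from other tissues or conditions, the supercomplex factor Cox7a2l, the coupling factor Atp5s and the second Atp5o model.

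The samples were total RNA from the cerebral cortex, left side, of 36-day-old females. Both mice (n = 2) were B6CASTF1/J, which is an F1 hybrid strain with a C57BL/6J and a CAST/EiJ parent. Each mouse gave 1 library, replicate 2 and replicate 1, from 300 ng of RNA that was reduced in ribosomal RNA, with ERCC spike-ins added. Both libraries belong to 1 group with no treatment, so the comparisons are between complexes, between the 2 genomes and between the 2 mice, and no p-value was computed. Replicate 2 held 35188766 expected counts and replicate 1 held 29417186. Separate animals are named for the libraries in the labels, yet a single donor record is shared by both.

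The respiratory chain passes electrons from NADH and succinate through complexes I to IV to oxygen and uses the resulting proton gradient to make ATP in complex V. Neurons depend on it heavily to pay for ion pumping and synaptic transmission. Complex II is encoded wholly in the nucleus, whereas the other complexes combine nuclear subunits with subunits encoded in the compact mitochondrial genome, whose transcripts are cut from long polycistronic precursors. Copies of mitochondrial DNA are also found inserted in nuclear chromosomes, and many nuclear subunit genes have processed pseudogenes, so that a read can match both a gene and its copy.

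Among the mitochondrial genes, 7 had a copy of at least 97% identity over at least 150 bases in the sense strand of another annotated gene. All 7 had such a copy within 1 block of chromosome 1, from 24611535 to 24616197 in build GRCm38, annotated as unprocessed pseudogenes. The copy of mt-Co2, which encodes subunit 2 of cytochrome c oxidase, was Gm28661, identical over 681 bases. The copy of mt-Atp6, for the proton channel subunit of ATP synthase, was Gm10925, identical over 678 bases. The copy of mt-Co3, for subunit 3 of cytochrome c oxidase, was Gm28437, identical over 783 bases. The copy of the 3′ part of mt-Co1, for the catalytic subunit of the same enzyme, was Gm29216, with 1 mismatch in 483 bases. The first 60 bases of the mt-Co2 stretch, and the 5′ end of the stretch shared by mt-Co1 and Gm29216, are shown. They mark where gene and copy are alike and where they differ. The capital marks the 1 mismatched base, A4T from mt-Co1 to Gm29216, counted from 1 at the 5′ end of the printed stretch.
mt-Co2, chrM:7013-7072, plus strand: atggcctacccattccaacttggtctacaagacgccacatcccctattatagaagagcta
Gm28661, chr1:24615506-24615565, minus strand: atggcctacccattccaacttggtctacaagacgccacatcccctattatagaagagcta
mt-Co1, chrM:6390-6423, plus strand: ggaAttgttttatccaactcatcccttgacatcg
Gm29216, chr1:24616155-24616188, minus strand: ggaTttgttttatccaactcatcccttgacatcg

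In the gene table, most of the pooled reads of mt-Co2, mt-Atp6 and mt-Co3 were placed on the copy, but not those of mt-Co1. The gene mt-Co2 had 248 TPM in replicate 2 and 97.3 TPM in replicate 1 (TPM, a level corrected for transcript length and scaled to the library). Its copy Gm28661 had 7162 TPM in replicate 2 and 7562 TPM in replicate 1. The share of the pooled counts on mt-Co2 itself was 3.36% in replicate 2 and 1.28% in replicate 1. The quantifier's own standard deviation for the mt-Co2 count in replicate 1 was 2065 reads, beside a count of 1064 reads, so the deposited value of mt-Co2 was smaller than its own uncertainty in that library. The gene mt-Atp6 held 29.7% of its pooled counts in replicate 2 and 25.9% in replicate 1. The gene mt-Co3 held 22.5% in replicate 2 and 23.4% in replicate 1. The gene mt-Co1 held 88.7% in replicate 2 and 89.3% in replicate 1. The copies of mt-Nd3, mt-Nd4 and mt-Nd4l in the same block, Gm28438, Gm28439 and Gm10222, had 0 counts in both libraries, except Gm10222 with 4.81 counts in replicate 1.

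The second transcript table of the authors divided the same reads differently. There mt-Co2 held 8.35% of its pooled counts in replicate 2 and 8.59% in replicate 1, mt-Atp6 held 58.7% and 62.1%, and mt-Co3 held 37.6% and 40.5%, in the same order of libraries. The mt-Nd4 copy Gm28439 had 2898 counts there in replicate 2 and 698 in replicate 1, and mt-Nd4 held 95.5% and 98.7%. With the copies' reads added, mt-Co2 reached 7374 TPM in replicate 2 and 7621 TPM in replicate 1. The pooled level of mt-Co1 came to 6776 TPM in replicate 2 and 7058 TPM in replicate 1. The pooled level of mt-Co3 came to 6332 TPM in replicate 2 and 6683 TPM in replicate 1. The pooled level of mt-Atp6 came to 8333 TPM in replicate 2 and 8657 TPM in replicate 1. After pooling, the 3 mitochondrial subunits of complex IV and mt-Atp6 were the 4 mitochondrial members with the highest levels in both mice.

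**Figure D1:**
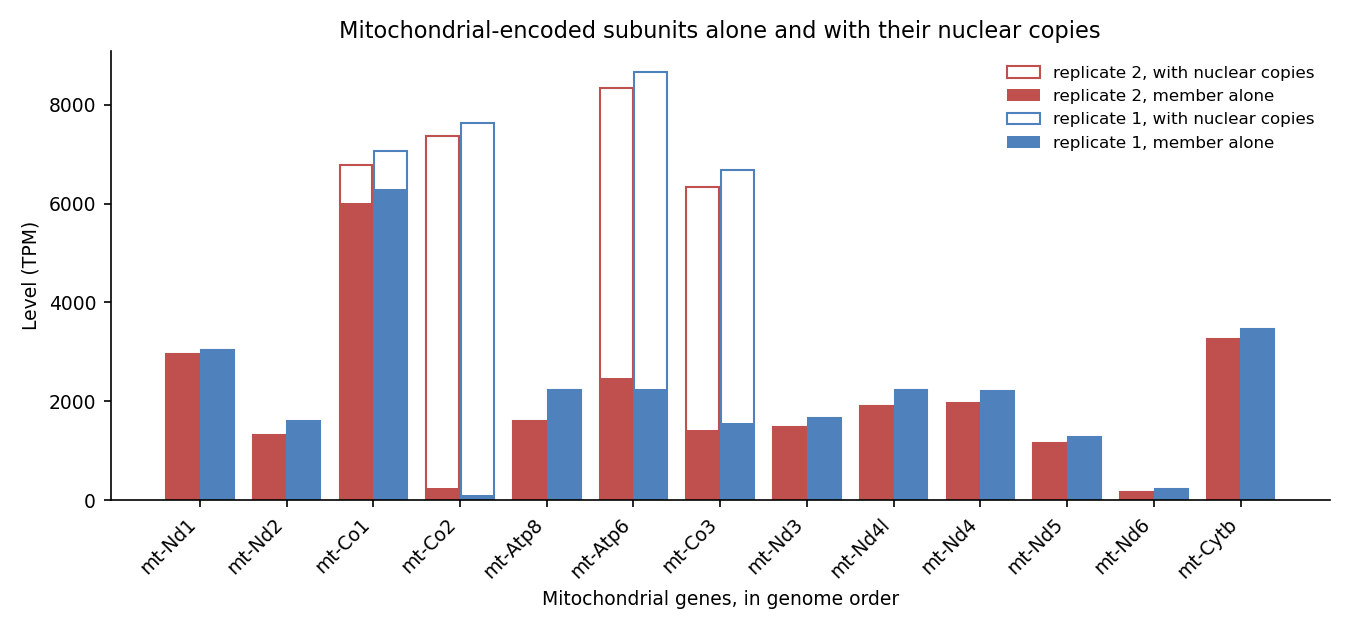
Level in TPM of the 13 mitochondrial members in genome order, with replicate 2 on the left and replicate 1 on the right of each pair. Filled bars are the member alone, and outlined bars add the reads of its nuclear copies. The filled bars of mt-Co2 reach 248 and 97.3 TPM and its outlined bars 7374 and 7621 TPM.

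The 7 mitochondrial subunits of complex I form most of its membrane arm. The gene mt-Nd1 had 2954 TPM in replicate 2 and 3031 TPM in replicate 1. The gene mt-Nd2 had 1309.7 TPM in replicate 2 and 1600.1 TPM in replicate 1. The gene mt-Nd3 had 1470.4 TPM in replicate 2 and 1652 TPM in replicate 1. These 3 genes kept the same order in both mice. The gene mt-Nd4 had 1970.4 TPM in replicate 2 and 2201 TPM in replicate 1, and mt-Nd4l had 1911 TPM in replicate 2 and 2234 TPM in replicate 1. The gene mt-Nd5 had 1151 TPM in replicate 2 and 1269.6 TPM in replicate 1. The gene mt-Nd6, the one protein gene of the mitochondrial genome on the opposite strand, had 159 TPM in replicate 2 and 233 TPM in replicate 1. The strand setting of the counting is not stated, so reads of its antisense transcripts may not have been kept apart. It was the lowest mitochondrial member in both mice once the copies were pooled, and mt-Cytb stood 20.6 times as high in replicate 2 and 14.8 times as high in replicate 1. The gene mt-Cytb, for cytochrome b of complex III, had 3267 TPM in replicate 2 and 3461 TPM in replicate 1.

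Neighbouring genes of the mitochondrial genome share bases where 1 reading frame begins before the other ends. The genes mt-Atp8 and mt-Atp6, both for membrane subunits of ATP synthase, overlap by 43 bases, and mt-Nd4l and mt-Nd4 overlap by 7 bases. The overlaps are shown in capitals, with 15 bases on each side, because they mark the bases that both genes share.
mt-Atp8 end and mt-Atp6 start, chrM:7912-7984, plus strand: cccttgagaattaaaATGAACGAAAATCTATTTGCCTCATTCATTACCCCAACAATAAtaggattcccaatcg
mt-Nd4l end and mt-Nd4 start, chrM:10152-10188, plus strand: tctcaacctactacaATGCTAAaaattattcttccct

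The gene mt-Atp8 had 1609 TPM in replicate 2 and 2235 TPM in replicate 1. The ratio of mt-Atp6 to mt-Atp8 was 1.54 in replicate 2 and 1.00 in replicate 1, counting only the reads placed on mt-Atp6. The ratio of mt-Nd4 to mt-Nd4l was 1.03 in replicate 2 and 0.985 in replicate 1, so the order of these neighbours was not the same in both mice. In the second table mt-Atp8 was listed at 0 counts in both libraries, and mt-Nd4l had 33 counts in replicate 2 and 20 counts in replicate 1. The annotated mt-Atp8 transcript is 204 bases long, and its effective length in the second table was 42.8 bases in replicate 2 and 44.98 bases in replicate 1. Over long transcripts only, a set without mt-Atp8, the effective length lay a median of 99 bases under the full length in the first transcript table. In the second table the median gap for long transcripts was 331 bases in replicate 2 and 336 bases in replicate 1. The counts also differed, with 4272 counts for mt-Atp8 in replicate 2 and 4389 in replicate 1 in the gene table.

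Read division also touched nuclear members. Near-identical copies were found for 16 nuclear members and 7 mitochondrial members, 32 copies in all, and 20 nuclear members had expected counts that were not whole to within 0.005. The gene Atp5g2, 1 of 3 genes for the c subunit of the rotor ring of ATP synthase, had 4.45 TPM in replicate 2 and 6.4 TPM in replicate 1. Its copy Gm10175 on chromosome 7, identical over 645 bases, had 103.3 TPM in replicate 2 and 99.8 TPM in replicate 1. The second table placed 100% of these reads on Atp5g2 in replicate 2 and 96.6% in replicate 1, where its level was 183 TPM and 157 TPM in the same order. The gene Ndufb4, an accessory subunit of complex I, had 26.5 TPM in replicate 2 and 29.7 TPM in replicate 1, and its copy Ndufb4c, identical over 390 bases, had 85.1 TPM in replicate 2 and 94.0 TPM in replicate 1. The gene Cox7c, an accessory subunit of complex IV, held 61.6% of its pooled counts in replicate 2 and 62.0% in replicate 1. In the second table Ndufb4 and Cox7c held 100% of theirs in both libraries. Of 86 nuclear members in both tables, 84 had a higher TPM in the second, with a median ratio of second over first of 1.80, against 1.57 for expressed nuclear protein-coding genes. Ndufa3, an accessory subunit of complex I with whole counts, had a lower mean in the second table, with 239 TPM in replicate 2 and 151 TPM in replicate 1 there, beside 226 TPM and 233 TPM in the first, and so the mice differed more in the second table.

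A gene and its copy could differ at a single base. Atp5g1, another c-subunit gene, differs from the processed pseudogene Gm10039 at 1 base in 411, near the end of the reading frame. The last 57 bases of the shared stretch are shown with this base in capitals, G31A from Atp5g1 to Gm10039, counted from 1 at the 5′ end of the printed stretch.
Atp5g1, chr11:96073104-96073160, minus strand: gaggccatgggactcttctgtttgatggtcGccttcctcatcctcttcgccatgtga
Gm10039, chr11:100361716-100361772, minus strand: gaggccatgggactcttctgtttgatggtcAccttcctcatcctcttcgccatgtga

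Atp5g1 held 86.4% of the pooled counts in replicate 2 and 91.9% in replicate 1 in the gene table, and 100% in both libraries in the second table. The part of the mismatched base in this division was not tested.

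**Figure D2:**
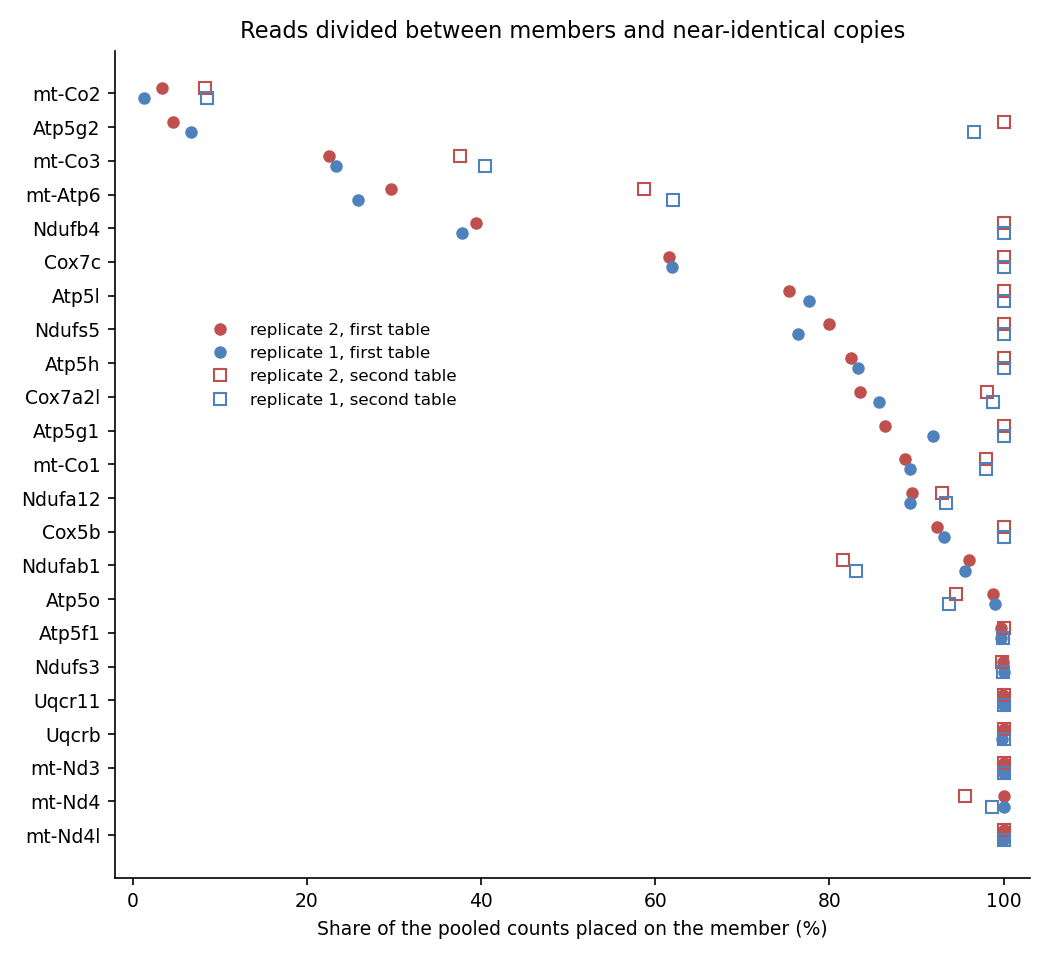
Share of the pooled counts of a member and its copies that was placed on the member, in percent, for the 23 members with a near-identical copy. Circles are the gene table and squares the second table, with replicate 2 above replicate 1 in each row. The circles of mt-Co2 lie at 3.36% and 1.28%, and those of Atp5g2 at 4.68% and 6.74% while its squares lie at 100% and 96.6%.

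The constitutive nuclear subunits were expressed together at high levels. All 76 reached at least 1 TPM in both libraries. The middle level among them stood at 105 TPM in replicate 2 and 112 TPM in replicate 1, against 14.2 TPM and 16.4 TPM for the 12754 expressed nuclear protein-coding genes. The median member stood at the 93.9th percentile of these genes, the lowest at 22.0 and the highest at 99.8, and 63 of 76 stood above the 90th. The lowest was Atp5g2, which held 4.68% of its pooled reads in replicate 2 and 6.74% in replicate 1. The mean level of 61 of them lay between 50 and 200 TPM, 11 lay above and 4 lay below. Over all members, 95 of 100 reached 1 TPM in both libraries, against 57.9% of nuclear protein-coding genes.

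In complex I, the 36 nuclear members had a median of 85.7 TPM in replicate 2 and 90.1 TPM in replicate 1. The 7 nuclear core subunits include those that carry the flavin and iron-sulphur centres. Ndufv1, which binds NADH and the flavin, had 105 TPM in replicate 2 and 108 TPM in replicate 1. Ndufs1, the largest subunit, had 61.5 TPM in replicate 2 and 70.5 TPM in replicate 1, and Ndufs8, an iron-sulphur subunit, had 61.8 TPM in replicate 2 and 58.0 TPM in replicate 1. Ndufs1 and Ndufs8 thus lay below the other core subunits named here, and their order was not the same in both mice. Ndufs3 had 97.4 TPM in replicate 2 and 111 TPM in replicate 1, Ndufv2 had 92.2 TPM in replicate 2 and 104 TPM in replicate 1, and Ndufs7 had 86.3 TPM in replicate 2 and 87.4 TPM in replicate 1. The 29 accessory subunits spread more widely around a median of 81.8 TPM in replicate 2 and 88.2 TPM in replicate 1. In the gene table the highest was Ndufa3, at 226 TPM in replicate 2 and 233 TPM in replicate 1, and the lowest was Ndufb4, whose reads were divided with its copy. The lowest with whole counts in that table was Ndufb3, at 43.5 TPM in replicate 2 and 49.9 TPM in replicate 1. Most of the Ndufa3 level lay on 1 transcript annotated for nonsense-mediated decay, not as protein-coding. Its share in the first transcript table was 92.4% in replicate 2 and 93.3% in replicate 1. In the second table the highest was Ndufb8, at 363 TPM in replicate 2 and 349 TPM in replicate 1.

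In complex II, Sdha, the flavoprotein that oxidises succinate, had 135 TPM in replicate 2 and 154 TPM in replicate 1. Sdhb, the iron-sulphur subunit, had 81.3 TPM in replicate 2 and 80.4 TPM in replicate 1. The membrane anchor Sdhc had 81.3 TPM in replicate 2 and 98.3 TPM in replicate 1, and the anchor Sdhd had 44.6 TPM in replicate 2 and 48.5 TPM in replicate 1. Sdha was the highest and Sdhd the lowest in both mice, and the ratio of Sdha to Sdhb was 1.66 in replicate 2 and 1.91 in replicate 1.

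In complex III, the 9 nuclear members had a median of 158 TPM in replicate 2 and 167 TPM in replicate 1. Cyc1, for cytochrome c1, had 84.9 TPM in replicate 2 and 88.6 TPM in replicate 1, and Uqcrfs1, for the Rieske iron-sulphur protein, had 63.8 TPM in replicate 2 and 70.2 TPM in replicate 1. Both electron-carrying nuclear subunits lay under the median of their complex. In the gene table the highest mean was that of the small subunit Uqcrq, at 199 TPM in replicate 2 and 197 TPM in replicate 1, whereas Uqcr11 was the highest in the second table. Uqcrfs1 was the lowest in both tables.

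In complex IV, the 11 constitutive nuclear subunits surround the mitochondrial core, and their median of 269 TPM in both replicate 2 and replicate 1 was the highest of the 5 complexes. Cox4i1, the largest nuclear subunit, had 502 TPM in replicate 2 and 501 TPM in replicate 1. Cox8a had 442 TPM in replicate 2 and 509 TPM in replicate 1. Cox6a1 had 332 TPM in replicate 2 and 317 TPM in replicate 1. Ndufa4, long listed under complex I and now placed in complex IV, had 289.5 TPM in replicate 2 and 330.2 TPM in replicate 1. The lowest mean in the gene table was that of Cox7b, at 129 TPM in replicate 2 and 162 TPM in replicate 1. In the second table Cox7b had 368 TPM in replicate 2 and 427 TPM in replicate 1, and the lowest was Cox5a, at 293 TPM in replicate 2 and 287 TPM in replicate 1.

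In complex V, the 16 constitutive nuclear subunits had a median of 144 TPM in replicate 2 and 161 TPM in replicate 1. Atp5b, for the catalytic beta subunit of the F1 head, was the highest nuclear member of the whole set, at 771 TPM in replicate 2 and 768 TPM in replicate 1. Atp5a1, for the alpha subunit, had 308 TPM in replicate 2 and 316 TPM in replicate 1. The beta subunit alternates with alpha in equal number in the F1 head, and the ratio of the Atp5a1 to the Atp5b level was 0.399 in replicate 2 and 0.411 in replicate 1. By expected counts, without correction for length, this ratio was 0.735 in replicate 2 and 0.725 in replicate 1. Transcripts not annotated as protein-coding held 37.3% of the Atp5b level in replicate 2 and 33.9% in replicate 1. For Atp5a1 they held 2.57% in replicate 2 and 2.11% in replicate 1. The other 3 F1 subunits lay lower, with Atp5d, for delta, at 156 TPM in replicate 2 and 162 TPM in replicate 1, Atp5c1, for the gamma shaft, at 102 TPM in replicate 2 and 113 TPM in replicate 1, and Atp5e, for epsilon, at 139 TPM in replicate 2 and 136 TPM in replicate 1. The 4 peripheral stalk genes had mean levels from 115 TPM for Atp5f1 to 196 TPM for Atp5h. In brain tissue as a whole, fewer cells that express a gene and less RNA per cell cannot be told apart, and this holds for every level given here.

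**Figure D3:**
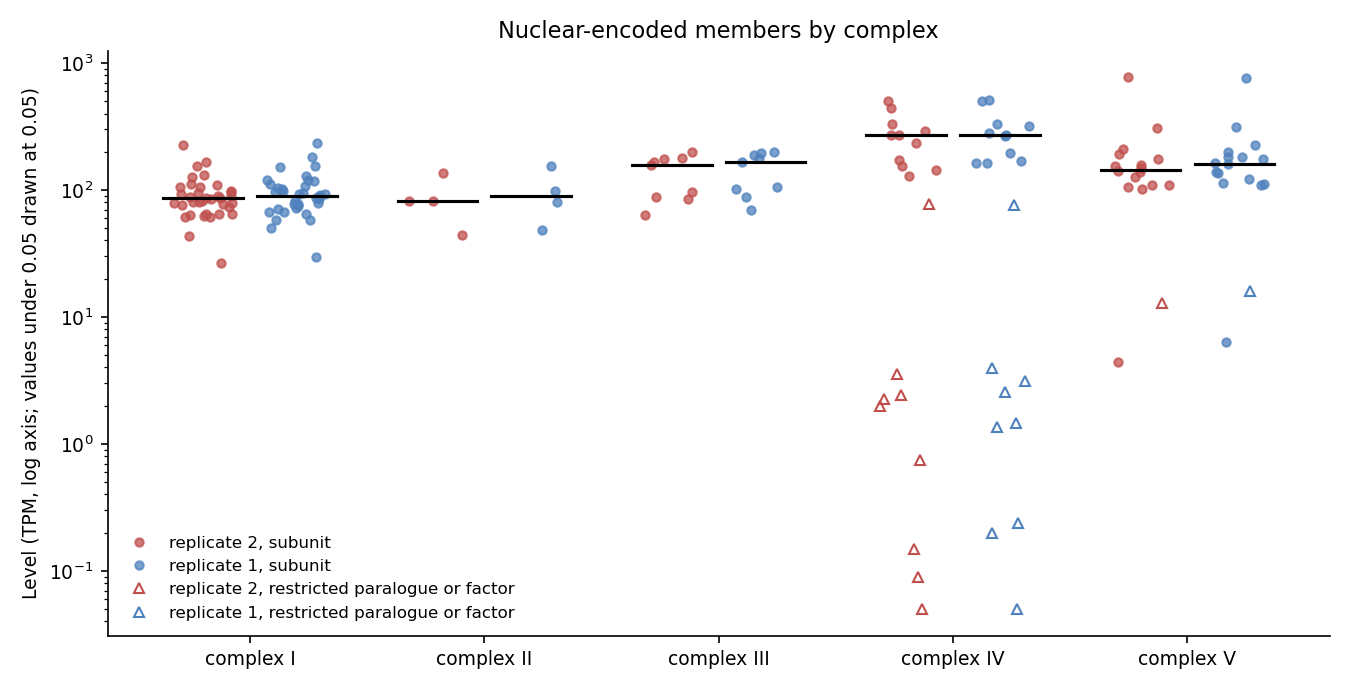
Level in TPM of each nuclear member on a log axis, by complex, with replicate 2 left of replicate 1. Filled circles are constitutive subunits, open triangles are restricted paralogues and factors, and black lines are the medians of the constitutive subunits. The complex IV medians of 269 TPM are the highest. The open triangles under 5 TPM in complex IV are its 8 restricted paralogues, each drawn once per replicate, with values under 0.05 TPM drawn at 0.05.

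Complex IV has subunit genes in pairs, with 1 form in most tissues and another that is restricted to muscle, lung, testis or certain conditions. In this cortex the broadly expressed form was higher in every such pair. Cox4i1 stood 669 times as high as Cox4i2, a form known from lung and hypoxia, in replicate 2 and 368 times in replicate 1. Cox4i2 itself had 0.75 TPM in replicate 2 and 1.36 TPM in replicate 1. Cox6a1 stood 93.6 times as high as the heart and muscle form Cox6a2 in replicate 2 and 80.0 times in replicate 1. Cox6b1 stood 120.0 times as high as the testis form Cox6b2 in replicate 2 and 195 times in replicate 1. Cox7a2 stood 59.7 times as high as the heart and muscle form Cox7a1 in replicate 2 and 51.7 times in replicate 1. Ndufa4 stood 145 times as high as Ndufa4l2, a form known from hypoxia, in replicate 2 and 128 times in replicate 1. In the second table the mean ratio of both mice was 144 for Cox6a1 over Cox6a2, 92.6 for Cox6b1 over Cox6b2 and 85.03 for Cox7a2 over Cox7a1. Of these paralogues, Cox6a2 had the highest level, at 3.54 TPM in replicate 2 and 3.96 TPM in replicate 1.

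The remaining restricted forms were at or near 0. Cox8b, the heart and muscle form, had 1 count in each library, and Cox8a stood 2918 times as high per length in replicate 2, with a 95% counting interval of 524 to 115295, and 2483 times in replicate 1, with an interval of 445 to 98092. Cox7b2, a testis form, had 1 count in replicate 2 and 2 counts in replicate 1, and Cox7b stood 1451 times as high per length in replicate 2, with an interval of 260.1 to 57327, and 672 times in replicate 1, with an interval of 186 to 5556. Cox8c, another testis form, had 0 counts in both libraries, and against a floor of 3 counts per library Cox8a was at least 1338-fold higher per length in replicate 2 and at least 1138-fold higher in replicate 1. Intervals and floors cover counting error only, since the reads carry no molecular identifiers. The testis markers Prm1 and Tnp1 were at 0 in both libraries. Of 5 muscle markers, 2 reached at least 1 TPM in both libraries. These were Acta1 (5.43 and 5.24 TPM) and Myh6 (1.7 and 4.29 TPM), with replicate 2 given first. Myh4 and Ckm stayed under 1 TPM, and Actc1 was at 0 in both libraries. The summed level of the 5 markers reached 7.41 TPM in replicate 2 and 9.68 TPM in replicate 1. The part of this summed level in the low levels of Cox6a2 and Cox7a1 was not tested.

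In the c-subunit family, Atp5g3 and Atp5g1 lay close together, with a ratio of 1.37 in replicate 2 and 1.23 in replicate 1. The ratio of Atp5g3 to Atp5g2 was 47.6 in replicate 2 and 35.0 in replicate 1 in the gene table, but 1.94 and 2.21 in the second table, in which the reads of the copy Gm10175 fell on Atp5g2. The supercomplex factor Cox7a2l, a relative of Cox7a2, had 77.0 TPM in replicate 2 and 76.1 TPM in replicate 1, and Cox7a2 stood 1.88 times as high in replicate 2 and 2.14 times in replicate 1.

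**Figure D4:**
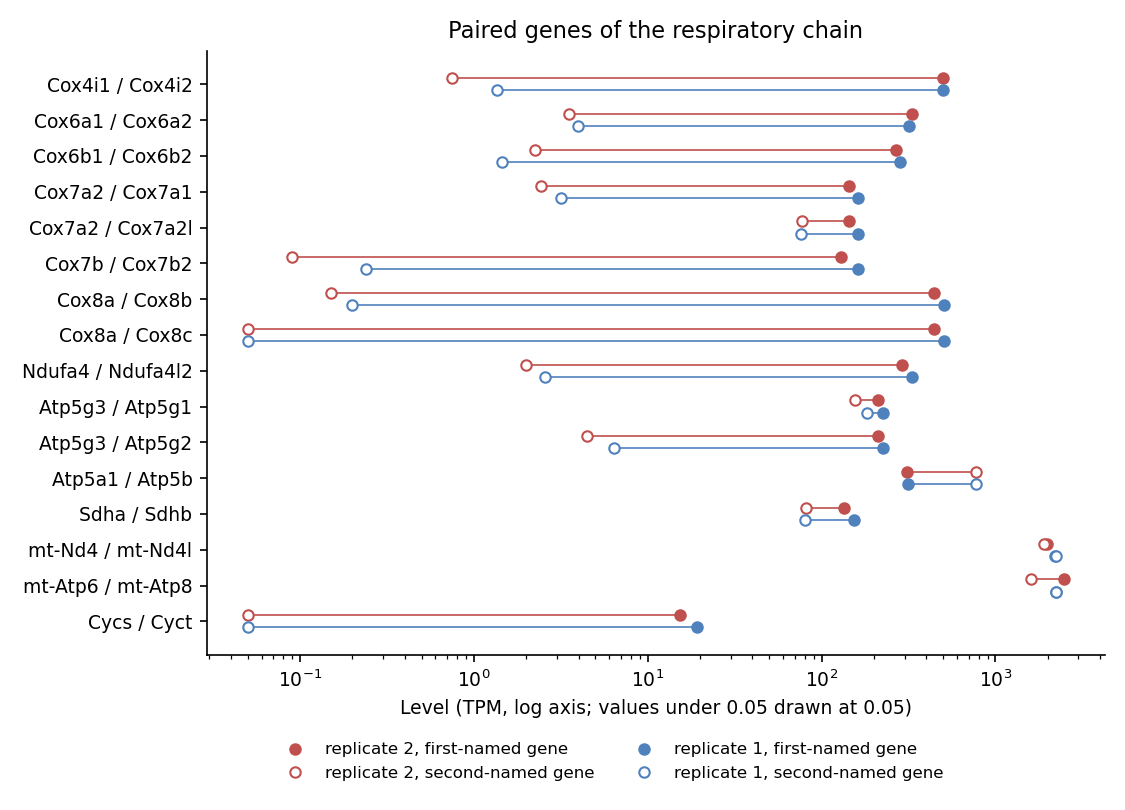
Level in TPM of 16 pairs of genes on a log axis, with replicate 2 above replicate 1 in each pair. Filled circles are the first-named gene and open circles the second. The restricted forms of complex IV lie under 5 TPM, while Atp5g3 and Atp5g1 lie close together and Atp5a1 lies below Atp5b.

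Mitochondrial members stood far above nuclear ones. In both mice, 11 of the 13 exceeded 1000 TPM, and 0 of the 87 nuclear members did in either mouse. The median mitochondrial level was 16.7 times the median nuclear level in replicate 2 and 21.3 times in replicate 1. With the copies pooled, the ratios were 20.2 in replicate 2 and 20.7 in replicate 1. The gap by sum was smaller, 2.40 in replicate 2 and 2.44 in replicate 1 without the copies, since nuclear members are more numerous. The mitochondrial members held 2.70% ± 0.153 of all TPM and the nuclear members 1.12% ± 0.0495 (SD, n = 2 each). With the copies pooled, the mitochondrial share was 4.46% in replicate 2 and 4.79% in replicate 1.

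The gap between genomes differed in size between complexes when copies were pooled. In complex I, the mitochondrial median was 17.03 times the median of the constitutive nuclear subunits in replicate 2 and 17.8 times in replicate 1. In complex III it was 20.7 times in both mice. In complex IV it was 25.2 times in replicate 2 and 24.9 times in replicate 1. In complex V it was 32.7 times in replicate 2 and 32.2 times in replicate 1. The order I, III, IV, V was the same in both mice, but the mitochondrial side rests on 7, 1, 3 and 2 genes, and in complex V on mt-Atp8, whose level depended on the table.

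The 2 mice differed little. Of 90 members with a mean count of at least 100, 1 passed a 2-fold difference, against 0.706% of the 12613 genes tested, and the same 1 passed a 1.5-fold difference, against 3.08%. By direction, 1 member was 1.5-fold higher in replicate 2, against 1.15% of genes tested, and 0 were 1.5-fold lower, against 1.93%. It was mt-Co2, with a log2 ratio of replicate 2 over replicate 1 of 1.59 in library-scaled counts with TMM factors. Its ratio was 0.20 with the reads of Gm28661 added, and 0.23 in the second table. The largest other ratios were 0.39 for mt-Atp6, which was 0.19 with its copy pooled, and 0.34 for Ndufa11, an accessory subunit of complex I. Ndufs8 followed at 0.33, with 61.8 TPM in replicate 2 and 58.0 TPM in replicate 1. The lowest ratios were -0.31 for mt-Nd6, -0.23 for mt-Atp8 and -0.05 for mt-Nd2.

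The nuclear members lay slightly to the side of replicate 2. Of the 77 nuclear members tested, the log2 ratio was above 0 for 70, and of all 90 members for 80, against 58.9% of all genes tested. The nuclear members ranged from -0.04 for Ndufa1 to 0.34 for Ndufa11 with a median of 0.16, against a median of 0.04 over all genes tested and quartiles of -0.09 and 0.16. On the TPM scale the sign was the other way, with 59 of 76 constitutive subunits lower in replicate 2, against 83.5% of expressed nuclear protein-coding genes. Their median log2 TPM ratio was -0.10, against -0.20 for those genes. With spike-in scaling the nuclear median was -0.31 and that of all genes -0.44.

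This difference moved with base composition. Across the 77 nuclear members, the log2 ratio and the GC content of the leading transcript were correlated with r = 0.63 (Pearson) and rho = 0.62 (Spearman), all values coming from the same 2 libraries. Over 12608 genes tested the correlations were 0.28 and 0.33. With the log2 length of the leading transcript, r was 0.18 and rho 0.24 for the members. Over the 12608 genes they were -0.24 and -0.30. Divided into 3 groups by GC, the nuclear members had a median log2 ratio of 0.05 in the lowest group, 0.16 in the middle group and 0.25 in the highest group. All genes tested, divided at their own GC values, had medians of -0.02, 0.05 and 0.12. The middle group ran from 49.0% to 54.3% GC among the members and from 47.3% to 53.6% among all genes. Ndufb8, at 55.3% GC, had a ratio of 0.21, and Cox7b, at 40.7% GC, had a ratio of -0.01. The leading transcript of Cox7b by the mean of both mice is a retained-intron one. It held 49.0% of the gene's TPM in replicate 2, where a protein-coding transcript held 51.0%, and 56.3% in replicate 1. The parts of GC content and of length in the difference were not tested.

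**Figure D5:**
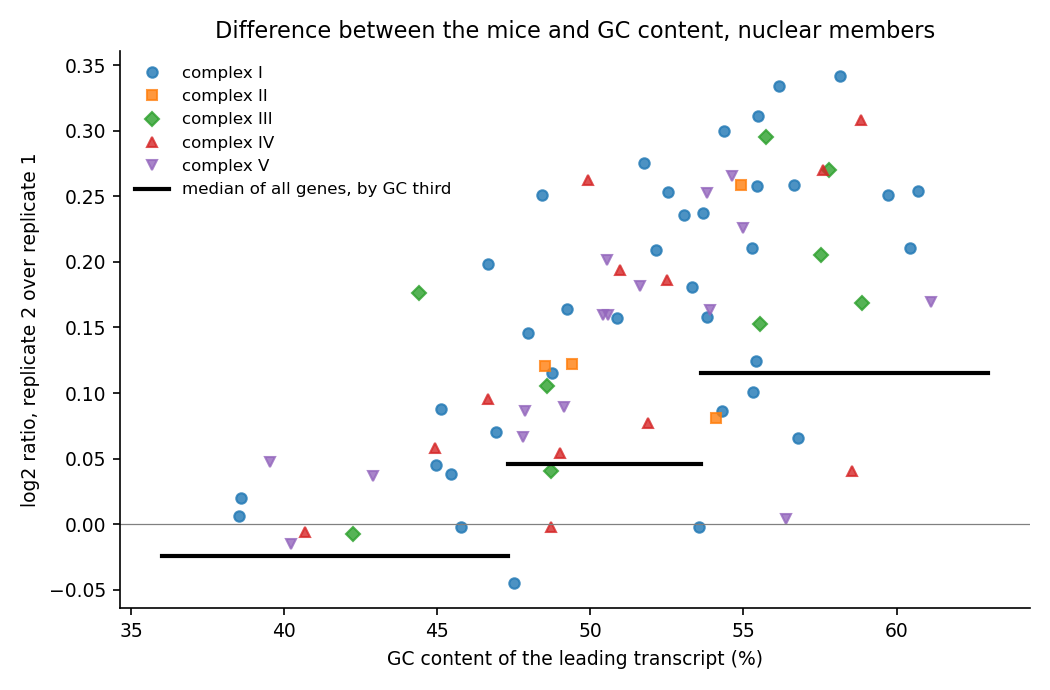
Log2 ratio of replicate 2 over replicate 1 against the GC content in percent of the leading transcript, for 77 nuclear members with symbols by complex. Black lines are the medians of all genes tested in each of 3 groups by GC content, drawn within the axis limits, at -0.02, 0.05 and 0.12. Most members lie above these lines, and the highest lie on the right.

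Promoter windows of 300 bases, from 250 bases before to 50 bases after the transcription start, were taken from RefSeq in build GRCm38.p6 for 69 of 86 nuclear members. Those not matched included Cox4i2, Ndufa2, Cox6c, Atp5mpl, Uqcrb, Ndufb9, Cyc1, Atp5a1, Ndufs1, Cox6a2, Uqcrc2, Cox4i1, Ndufa4l2, Cox8c, Uqcrq and Sdhc. NRF1, GABPA and YY1 are transcription factors long tied to genes of the respiratory chain, and their motifs were searched on both strands. The NRF1 motif, GCGCA followed by any base and GCGC, was found in 16 of 63 constitutive subunits, or 25.4%, against 6.60% of 17492 protein-coding genes. The GABPA motif CCGGAAG was found in 15 of 63, or 23.8%, against 11.9%. The YY1 motif AAGATGGCG was found in 6 of 63, or 9.52%, against 1.94%. At least 1 of these motifs was found in 32 of 63, or 50.8%, against 18.6%. The GC box GGGCGG and the CCAAT box did not lie above in the same way, at 39.7% against 46.3% and at 41.3% against 39.0%. A further motif searched, ERR with the letters TCAAGGTCA, was found in 2 of 63, or 3.17%, against 0.332%. The 17492 genes were not limited to expressed ones. A match is a description of letters in the window. The median level of the 32 subunits with at least 1 of the 3 motifs was 106 TPM, beside 112 TPM for the 31 without.

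The windows of the matched nuclear member with the highest level, and of the highest members with the NRF1, GABPA and YY1 motifs, are shown with matches to these 3 motifs on either strand in capitals. Atp5b holds none of them, although it has 5 CCAAT boxes and 2 GC boxes. Cox6a1 holds 2 NRF1 motifs and 1 GABPA motif, Cox8a holds 2 GABPA motifs, and Ndufc1, an accessory subunit of complex I, holds 1 YY1 motif just after the start.
Atp5b, chr10:128083057-128083356, plus strand: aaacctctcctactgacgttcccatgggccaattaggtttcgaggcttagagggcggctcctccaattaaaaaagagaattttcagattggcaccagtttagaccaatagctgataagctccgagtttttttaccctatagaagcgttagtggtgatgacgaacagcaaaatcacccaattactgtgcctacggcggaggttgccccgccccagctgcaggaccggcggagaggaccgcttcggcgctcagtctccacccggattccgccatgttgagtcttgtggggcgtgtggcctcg
Cox6a1, chr5:115348909-115349208, minus strand: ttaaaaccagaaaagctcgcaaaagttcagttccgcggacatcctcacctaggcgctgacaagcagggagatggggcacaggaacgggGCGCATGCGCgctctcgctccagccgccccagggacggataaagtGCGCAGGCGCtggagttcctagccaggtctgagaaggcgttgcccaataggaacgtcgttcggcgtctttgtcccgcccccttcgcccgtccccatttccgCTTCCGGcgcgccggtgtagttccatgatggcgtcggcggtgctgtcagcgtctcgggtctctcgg
Cox8a, chr19:7217567-7217866, minus strand: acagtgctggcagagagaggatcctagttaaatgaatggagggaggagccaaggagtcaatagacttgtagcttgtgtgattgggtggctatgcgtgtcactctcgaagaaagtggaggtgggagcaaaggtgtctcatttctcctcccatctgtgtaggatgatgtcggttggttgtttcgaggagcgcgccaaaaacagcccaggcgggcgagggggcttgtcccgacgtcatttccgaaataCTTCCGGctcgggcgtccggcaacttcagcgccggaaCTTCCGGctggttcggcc
Ndufc1, chr3:51408906-51409205, minus strand: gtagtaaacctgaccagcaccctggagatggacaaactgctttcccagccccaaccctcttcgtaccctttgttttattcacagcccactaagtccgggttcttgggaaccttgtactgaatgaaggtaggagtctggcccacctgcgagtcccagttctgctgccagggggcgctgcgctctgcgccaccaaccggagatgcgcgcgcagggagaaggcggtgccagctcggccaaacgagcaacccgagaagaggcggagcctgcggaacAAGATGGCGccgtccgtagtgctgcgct

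Many nuclear members start next to another gene on the opposite strand. Of 76 constitutive subunits, 30, or 39.5%, had the annotated start of another protein-coding gene on the opposite strand within 1000 bases, against 15.4% of expressed nuclear protein-coding genes and 0 of 8 restricted paralogues. In complex I the share was 16 of 36 genes, in complex II 3 of 4, in complex III 4 of 9, in complex IV 2 of 11 and in complex V 5 of 16. Some neighbours also serve mitochondria. Ndufb5 lies beside Mrpl47 and Ndufs6 beside Mrpl36, both for proteins of the mitochondrial ribosome, and Sdhd lies 98 bases from Timm8b, for a chaperone of mitochondrial protein import. Atp5j, for coupling factor 6 of the ATP synthase stalk, lies beside Gabpa itself. Atp5j had 148 TPM in replicate 2 and 176 TPM in replicate 1, while Gabpa had 6.65 TPM in replicate 2 and 8.32 TPM in replicate 1. Sdhd had 44.6 TPM in replicate 2 and 48.5 TPM in replicate 1, while Timm8b had 103.2 TPM in replicate 2 and 107 TPM in replicate 1. Of 25 pairs in which the neighbour was expressed, the subunit was the higher gene in 21 and the neighbour in 4, and the median ratio was 9.43 in replicate 2 and 9.54 in replicate 1. The subunits also lay above expressed nuclear protein-coding genes at large, with medians of 105 against 14.2 TPM in replicate 2. In replicate 1 these medians were 112 against 16.4 TPM. The same count over all such pairs of genes was not made.

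Of 74 members with several annotated transcripts, 69 had a mean count of at least 100. In 66 of these the same transcript led in both mice in the first transcript table, and its median share of the gene's TPM was 86.8% in replicate 2 and 84.3% in replicate 1. The same transcript also led in the second table in 39. The leading protein-coding transcript of Ndufs1 was such a case, with 49.0% in replicate 2 and 47.6% in replicate 1 in the first table and 74.95% and 63.5% in the second. That of Ndufa10, an accessory subunit of complex I, led with 38.6% in replicate 2 and 42.3% in replicate 1 in the first table and 44.4% and 52.5% in the second. By the mean of both mice, the first table gave the lead in 10 members to a transcript that is not annotated as protein-coding. Among them, Cox7b had a protein-coding transcript in the lead in replicate 2, at 51.0%. The same count over all genes was not made. For Atp5j the leading transcript was a retained-intron one, at 78.4% in replicate 2 and 81.8% in replicate 1, which the second table listed at 0% in both. For Ndufa5 it was a processed transcript, at 66.3% in replicate 2 and 63.3% in replicate 1, and the second table gave it 73.6% and 79.1%.

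The assembly factors of complexes I to V had median levels from 11.7 to 25.4 TPM in replicate 2 and from 12.5 to 27.4 TPM in replicate 1. Those with a mean count of at least 100 numbered 15, 4, 6, 19 and 6 for complexes I to V. Of these, 1 differed 1.5-fold between the mice, against 3.08% of all genes tested. This was Ndufaf8, for a complex I assembly factor, with 20.1 TPM in replicate 2 and 16.0 TPM in replicate 1, and 211 and 115 counts. The 78 mitochondrial ribosomal protein genes had a median of 21.8 TPM in replicate 2 and 22.9 TPM in replicate 1, and 62 of them had a log2 ratio above 0, against 58.9% of all genes tested. The list of mitochondrial carriers and outer membrane proteins, 9 genes, had a median of 137.8 TPM in replicate 2 and 150.2 TPM in replicate 1, above that of the constitutive subunits. Slc25a4, the ADP/ATP carrier of the inner membrane, had 249.8 TPM in replicate 2 and 254 TPM in replicate 1. The regulators Nrf1, at 8.03 TPM in replicate 2 and 9.95 TPM in replicate 1, and Ppargc1a, at 22.2 TPM in replicate 2 and 25.3 TPM in replicate 1, lay below the median of the constitutive subunits. Cycs, for the mobile carrier cytochrome c, had 15.3 TPM in replicate 2 and 19.3 TPM in replicate 1 in the gene table but 214 TPM and 222 TPM in the second table. Its germ cell form Cyct had 0 counts in both libraries.

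Cell type markers with a mean count of at least 100 differed between the mice by less than 1.5-fold, apart from the red blood cell genes. The 5 neuronal markers had a median log2 ratio of 0.10, the 4 astrocyte markers 0.17 and the 3 oligodendrocyte markers -0.12. Hba-a1 had 147 TPM in replicate 2 and 286 TPM in replicate 1, and Hbb-bs had 148 TPM in replicate 2 and 276 TPM in replicate 1. The part of cell composition in the small difference of the nuclear members was not tested.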

How the data were processed

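Each library was deposited with a gene table, a first transcript table and a second transcript table. Per the file headers, the gene table holds the expected counts and TPM that the authors obtained, with a posterior SD of each count, and the first transcript table adds the isoform share in percent. Per the file headers, the second table holds the authors' estimated counts and TPM. Per the labels and deposited notes, the genome was mm10 with annotation release M21. The aligner, its version and the strand setting are not stated in the labels or headers used. Counts were rounded to whole numbers for the log2 ratios and for counting intervals.

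Log2 ratios of replicate 2 over replicate 1 were computed from library-scaled counts with TMM factors (edgeR 4.0.16, R 4.3.3, prior count 2). DESeq2 1.42.0 size factors and spike-in scaling were alternatives. Fold counts were limited to genes whose counts averaged 100 or more. Near-identical copies were found with BLAST 2.17.0. Other steps used Python 3.11.15, pandas 2.3.3, scipy 1.17.1 and matplotlib 3.10.9. With 1 group of 2 libraries, no p-value was computed and the spread between libraries may be partly technical. Intervals are 95% Clopper-Pearson intervals and cover counting error only. The step that computes the log2 ratios was tested on simulated data. The members and gene lists were chosen with earlier results of these data known. By rule, full values went to mitochondrial members, core or catalytic nuclear subunits, the highest and lowest of each complex, the listed pairs, members past 1.5-fold, the 3 largest ratios each way, and members with divided reads or the 5 largest gaps between tables. Ndufb8, Cox7b's GC content, the isoform examples, the neighbour examples and Ndufaf8 were chosen after their values were seen. Values of some members are not reported here.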

Additional observations from a re-analysis of the deposited data

Results flagged for a closer look

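Signals appeared in 4 related genes that are not members. Ndufb1-ps and Ndufb4c match the symbols but have no protein-coding transcript, and Atpif1 and Usmg5 do not match the symbols. Ndufb1-ps had 38.8 TPM in replicate 2 and 42.5 TPM in replicate 1, a mean of 40.7 TPM. Ndufb4c, the copy of Ndufb4, had a mean of 89.5 TPM. Atpif1, for the inhibitor of ATP synthase, had 203 TPM in replicate 2 and 225 TPM in replicate 1, a mean of 214 TPM. Usmg5, for a small membrane subunit of ATP synthase, had 263 TPM in replicate 2 and 328 TPM in replicate 1, a mean of 295.7 TPM. No control samples exist against which to set these levels.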

How the results depend on the processing

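No paired analysis was possible because both libraries belong to 1 group. The nuclear share of 1.12% (1.08% to 1.15% leaving out 1 library) was 2.03% in the second table, 0.549% by counts and 2.38% of protein-coding TPM. The mitochondrial share of 2.70% (2.60% to 2.81%) was 4.16%, 1.67% and 5.75% in the same settings and 4.63% with copies pooled. The mitochondrial over nuclear median of 19.0 (16.7 to 21.3) was 13.1 in the second table and 2.42 by sums. Median levels of complexes I to V in the second table were 152, 118, 299.5, 314 and 269 TPM, and in counts 1095, 1626, 1652.5, 1756 and 1849. Without restricted paralogues and non-subunits the medians of complexes IV and V were 269 and 153 TPM, and with copies pooled that of V was 153 TPM. Spike-in scaling, which moved the all-gene median from 0.02 to -0.44, gave median log2 ratios of -0.31 for nuclear and -0.36 for mitochondrial members, and -0.29, -0.34, -0.30, -0.37 and -0.31 for complexes I to V. The second table gave 0.21 and 0.19, and 0.22, 0.21, 0.21, 0.13 and 0.22. With whole counts only, the mitochondrial median was 0.079 and that of complex I 0.21. Without mt-Nd6, mt-Atp8, mt-Atp6, mt-Nd4l and mt-Nd4 the mitochondrial median was 0.13, and without a count filter complex V gave 0.12. Members past 2-fold numbered 2 without a count filter, and 0 in the second table, with whole counts only and with copies pooled. The leading isoform share of 85.5% (84.3% to 86.8%) was 61.3% in the second table. The ratio of mt-Nd4 to mt-Nd4l ran from 0.985 to 1.03 leaving out 1 library, which reversed the order. Pooling the copies was chosen after seeing the data. The causes were not tested. With 2 libraries, an SD rests on a single difference, and members with few counts are limited by depth.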
